A study of Mus musculus with 8 samples.

Results

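The cluster of miR-322, miR-503 and miR-542 is a run of 7 miRNA hairpins on the mouse X chromosome. Its members here were the mature miRNAs named mmu-miR-322, mmu-miR-503, mmu-miR-351, mmu-miR-542, mmu-miR-450a and mmu-miR-450b, each with any copy number and arm. The rule uses names and no measured value, and 13 of the 1099 mature miRNAs listed carried such a name. Of these, 12 passed the filter on low values, which 839 miRNAs passed in all, and 8 had a mean of at least 10 RPM (reads scaled to a common total of 1000000 miRNA reads per library), as 499 miRNAs did in all. All 8 libraries entered the levels and the main tests of the members, while ranges of arm shares left out libraries with fewer than 20 reads of a hairpin.

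Small RNA was sequenced from embryoid bodies (EBs), the aggregates in which embryonic stem cells begin to differentiate, of KH2-DGCR8 mouse embryonic stem cells. Each of EB days 0, 1, 2 and 4 gave 1 library with doxycycline (Dox) and 1 library with no Dox, so there were 4 libraries per treatment and no condition had a replicate. The study set out to learn what overexpressed DGCR8 does to miRNA biogenesis, and Dox is taken here as the agent that switches the DGCR8 transgene on. The genotype label is the same in every library, so the no-Dox cells are of the transgenic line too. How long Dox was given, whether the line is 1 clone and whether libraries came from separate cultures was not stated in the labels. Small RNA libraries do not measure the DGCR8 mRNA, so its induction was not checked.

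DGCR8 and the nuclease DROSHA form the Microprocessor, which cuts miRNA hairpins out of their primary transcripts before DICER cuts out the mature arms. miR-322 is the mouse counterpart of human miR-424. In mouse myoblasts, miR-322 and miR-503 are known to be induced on differentiation and to repress Cdc25a, a phosphatase that drives the cell cycle, and in mouse embryonic stem cells they have been linked to cardiac progenitors. miR-351 carries the seed of the miR-125 family, and miR-542-3p has been reported in human cells to repress survivin, an inhibitor of cell death.

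The hairpins lie on the minus strand of chrX:53047997-53054349 (mm10), in the transcribed order miR-322, miR-503, miR-351, miR-542, miR-450a-2, miR-450a-1 and miR-450b. A gap of 200 bases separates miR-322 from miR-503, 630 bases separate miR-503 from miR-351, and 3767 bases separate miR-351 from miR-542. A further 1035 bases lead to miR-450a-2, and the last 3 hairpins follow with gaps of 54 and 75 bases. No hairpin overlaps an exon or another gene in GENCODE M21. In RefSeq the noncoding gene C430049B03Rik, at chrX:53053112-53057190, spans the hairpins of miR-322, miR-503 and miR-351 and ends before the others.

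The mature sequences of the 8 members with a mean of at least 10 RPM are shown because their seeds, bases 2 to 8 in capitals, define which targets each arm can pair with. They are from RefSeq (GRCm38.p6), written 5′ to 3′, in transcribed order.
mmu-miR-322-5p: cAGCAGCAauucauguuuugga
mmu-miR-322-3p: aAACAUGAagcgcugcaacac
mmu-miR-503-5p: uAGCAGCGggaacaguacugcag
mmu-miR-351-5p: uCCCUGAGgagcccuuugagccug
mmu-miR-542-3p: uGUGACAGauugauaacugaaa
mmu-miR-450a-5p: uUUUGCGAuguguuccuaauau
mmu-miR-450b-5p: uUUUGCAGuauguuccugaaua
mmu-miR-450b-3p: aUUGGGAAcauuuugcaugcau
These 8 arms carry 8 different seeds. The seeds of miR-503-5p and miR-322-5p are alike but not identical. miR-450a-5p and miR-450b-5p share 15 of 22 bases but have different seeds, with the substitutions G7A and A8G counted from the 5′ end of miR-450a-5p. miR-450a-5p has the same sequence in the hairpins miR-450a-1 and miR-450a-2, so its reads cannot be assigned to either.

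The hairpins of miR-322 and miR-542 are shown because they used opposite arms. The mature arms are in capitals, with the 5p arm first.
Mir322, chrX:53054255-53054349: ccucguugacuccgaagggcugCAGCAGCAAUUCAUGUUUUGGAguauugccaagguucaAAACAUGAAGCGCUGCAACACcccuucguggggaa
Mir542, chrX:53049403-53049487: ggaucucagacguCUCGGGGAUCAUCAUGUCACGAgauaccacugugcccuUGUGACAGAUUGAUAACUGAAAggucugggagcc
Over all 8 libraries the 5p arm took 70.5% of the 251 reads of the miR-322 hairpin (95% exact binomial interval 64.5% to 76.1%). For miR-542 the 5p arm took 0.554% of 1083 reads (0.204% to 1.2%), so that nearly all of its reads were miR-542-3p. The 5p arm held 87.0% of the reads of miR-503 and 88.9% of those of miR-450b. Of miR-351-3p a single read was found, in the no-Dox library of day 2.

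The values are those the authors deposited, whole numbers that sum to close to the RPM scale of 1000000 in each library. Implied totals ran from 362483 to 541342 reads, so that 3 reads were worth between 5.54 and 8.28 RPM. Each library held between 630 and 751 miRNAs with a value above 0. As a check on the labelled cell type, all 8 markers of embryonic stem cells, from the miR-290 cluster, were found in every library. They summed to 373277, 356852, 343105 and 213844 RPM with Dox at days 0, 1, 2 and 4, and to 423773, 369574, 333299 and 151572 RPM without Dox. Of the endothelial and blood markers 4 of 5 were analysed, and summed to between 1126 and 2051 RPM. Their courses differed. miR-150-5p had 1080 RPM with Dox and 1185 RPM without at day 0, and 74 and 50 RPM at day 4. miR-126a-3p had 866 RPM with Dox and 844 RPM without at day 0, and 1565 and 1040 RPM at day 4.

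The cluster was a small part of these libraries. Its 13 listed members summed to 323, 640, 796 and 528 RPM with Dox at days 0, 1, 2 and 4, and to 432, 978, 1074 and 1561 RPM without Dox. The sum was below the no-Dox library on each day, and the gap was widest at day 4. The ratio of Dox to no Dox was 0.748 at day 0 (95% interval 0.587 to 0.949), 0.654 at day 1 (0.565 to 0.755), 0.740 at day 2 (0.644 to 0.851) and 0.337 at day 4 (0.291 to 0.389). These exact intervals on implied reads reflect counting error alone, and each side of a ratio is 1 library. In bulk libraries, fewer cells of a type and less RNA per cell cannot be told apart. Without miR-542-3p the ratio at day 4 was 0.478 (0.399 to 0.571), so the gap was not made by that miRNA alone.

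miR-542-3p was the most abundant member, with a mean of 314.8 RPM and rank 169 among all miRNAs. It stood at 82, 226, 342 and 131 RPM with Dox at days 0, 1, 2 and 4, against 126, 376, 501 and 734 RPM without Dox. The Dox library was the lower of the pair on all 4 days, although the ranges of the 4 libraries of each treatment overlapped. Dox over no Dox came to 0.651, 0.601 and 0.684 on the first 3 days, and 0.179 at day 4 (95% interval 0.136 to 0.233), a level 5.60-fold lower. Without Dox its level was higher at each later day sampled, whereas with Dox day 4 stood at 0.383 of day 2 (0.286 to 0.509).

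miR-450b-5p, from the last hairpin of the cluster, was the second most abundant member, with a mean of 213.1 RPM. It had 137, 212, 215 and 124 RPM with Dox at days 0, 1, 2 and 4, against 116, 262, 280 and 359 RPM without Dox. The Dox library was higher than its partner at day 0 and below it on the other 3 days. At day 4 the ratio was 0.345 (95% interval 0.253 to 0.467). Its 3p arm, miR-450b-3p, had 11, 19, 17 and 30 RPM with Dox and 27, 38, 19 and 52 RPM without Dox, lower with Dox on all 4 days, with a day 4 ratio of 0.564 (0.271 to 1.16) whose interval holds 1.

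The sequence of miR-450a-5p lies in both miR-450a hairpins. This arm had 25, 33, 68 and 20 RPM with Dox and 32, 78, 95 and 55 RPM without Dox. Both treatments had their highest value at day 2. The Dox library was the lower on all 4 days, with a ratio of 0.368 at day 4 (0.159 to 0.806). At day 4 its level was 0.299 of day 2 with Dox (0.136 to 0.608) and 0.581 without Dox (0.322 to 1.02).

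miR-322-5p, the leading arm of the first hairpin, had 19, 35, 43 and 57 RPM with Dox, against 46, 82, 14 and 108 RPM without Dox. Day 2 ran opposite to the other days, with a ratio of 2.99 (1.16 to 9.09) against 0.415, 0.423 and 0.532 at days 0, 1 and 4. The no-Dox value of day 2 rested on 6 implied reads. In that library the 3p arm was not low, at 26 RPM against 29 RPM at day 1, so the 5p arm took 35.3% of 17 reads of the hairpin (14.2% to 61.7%). In the 6 libraries with at least 20 reads of the hairpin its share was between 66.0% and 81.8%.

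miR-322-3p had 5, 8, 21 and 30 RPM with Dox and 15, 29, 26 and 33 RPM without Dox, lower with Dox on all 4 days, but at day 4 only by a ratio of 0.893 (0.396 to 2.07). miR-503-5p, whose human counterpart is known to repress cyclin D1, had 30, 52, 36 and 39 RPM with Dox and 29, 58, 78 and 91 RPM without Dox. Its values lay together at days 0 and 1 and apart at days 2 and 4, where the ratios were 0.462 (0.241 to 0.853) and 0.426 (0.234 to 0.759).

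miR-351-5p had 11, 37, 32 and 91 RPM with Dox and 22, 44, 38 and 110 RPM without Dox. Its course was similar in both treatments: each had its highest value at day 4, about as far above day 2 with Dox (2.84-fold, 1.57 to 5.45) as without it (2.91-fold, 1.59 to 5.56). The Dox library was the lower on all 4 days, with a day 4 ratio of 0.820 (0.529 to 1.28). The means of miR-503-5p, miR-450a-5p, miR-322-5p and miR-351-5p, between 48.1 and 51.6 RPM, changed order from library to library and were not told apart.

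The remaining 5 members were rare. miR-503-3p lay between 2 and 19 RPM, miR-450a-1-3p and miR-450a-2-3p did not exceed 8 and 9 RPM, miR-542-5p did not exceed 5 RPM, and miR-351-3p was listed at 2 RPM in 1 library. None exceeded 7 implied reads in a library, so their values are imprecise.

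**Figure D1:**
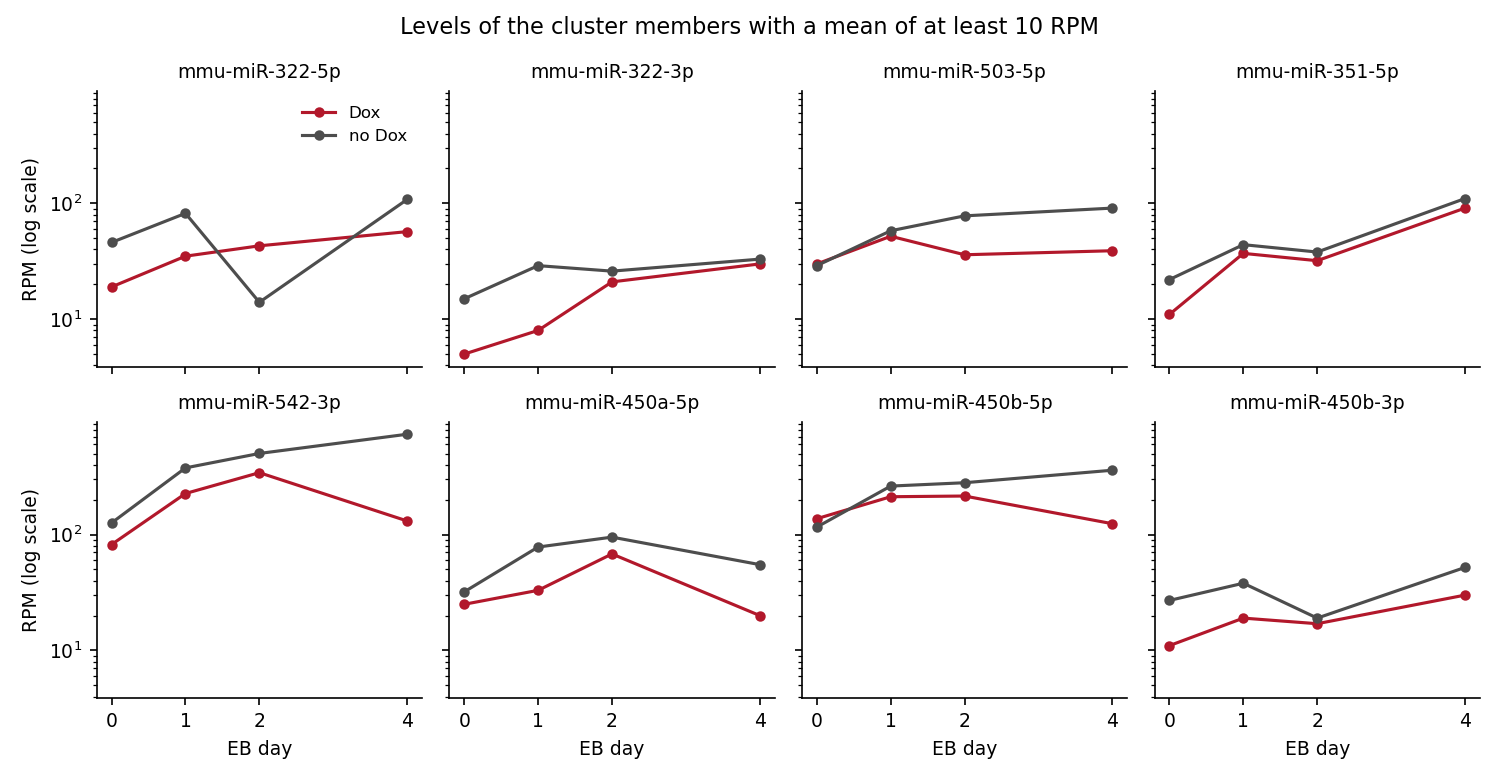
RPM on a log axis against EB day for the 8 members with a mean of at least 10 RPM, in transcribed order, with Dox in red and no Dox in grey, and 1 library per point. miR-542-3p separates at day 4, at 131 RPM with Dox and 734 RPM without, while miR-351-5p climbs in both treatments, and the miR-322-5p lines cross at day 2 on 6 reads.

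Across the 8 libraries, limma's moderated test with day as a factor and Benjamini-Hochberg adjustment called 1 of the 12 members tested lower with Dox and 0 higher. Over all 839 miRNAs tested, 0.596% were called lower and 1.31% higher. miR-542-3p fell by 1.09 on the log2(value + 1) scale (SE 0.26, adjusted p = 0.00288 by limma, lower on 4 of 4 days). The SE came from the trend over all miRNAs, with an SD of 0.36, while the spread of miR-542-3p itself about the fit was 0.65. The call was lost without limma's robust option (adjusted p = 0.377), where 0 of all 839 miRNAs were called for Dox. It was also lost without the libraries of day 1 (0.0944), day 2 (0.247) or day 4 (0.204, where the log2 change was −0.63).

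The other members did not pass. miR-322-3p had a log2 change of −0.90 (SE 0.49), miR-450a-5p −0.86 (SE 0.37), miR-450b-3p −0.78 (SE 0.45), miR-503-5p −0.60 (SE 0.36), miR-450b-5p −0.49 (SE 0.27), miR-322-5p −0.45 (SE 0.38) and miR-351-5p −0.42 (SE 0.39). Their limma adjusted p-values ran from 0.312 for miR-450a-5p to 0.791 for miR-351-5p. At an unadjusted level of 0.05, limma counted 2 members, miR-542-3p and miR-450a-5p.

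The direction was nevertheless the same in most members. Of the 12 tested, 11 had a log2 change below 0, with a median of −0.61 against 0.03 over all miRNAs tested. All 8 members with a mean of at least 10 RPM were below 0, with a median of −0.69 against 0.02 over the 499 miRNAs at that level. In 5 of these 8 the Dox library was the lower on all 4 days, as in 10.2% of the 499 miRNAs. The 5 were miR-542-3p, miR-450a-5p, miR-351-5p, miR-450b-3p and miR-322-3p. For miR-351-5p and miR-450b-3p the counting interval held 1 on each of the 4 days. For miR-322-3p it lay below 1 at day 1 only, for miR-450a-5p at days 1 and 4, and for miR-542-3p at days 1, 2 and 4. At day 2 miR-450b-3p had 8 implied reads in each treatment, so the direction alone says little for such members. Members lie close together on 1 chromosome and some share a hairpin, so they are not independent measurements, and no test was made over them.

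By day, the median log2 difference of the 8 members was −0.78, −0.85, −0.34 and −1.06 at days 0, 1, 2 and 4, against 0.02, 0.07, −0.09 and −0.06 over the 499. The number of the 8 below 0 was 6, 8, 7 and 8 on those days. The share of the 499 below 0 was 46.9%, 42.5%, 55.1% and 51.9%. The members' median was thus below that of the library already at day 0. On that day miR-450b-5p and miR-503-5p had ratios of 1.18 and 1.03. Low ratios there rest partly on few reads, as for miR-322-3p with 2 reads with Dox and 6 without. The day 0 counting interval of each single member held 1, while that of the 13 members summed did not (0.587 to 0.949).

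**Figure D2:**
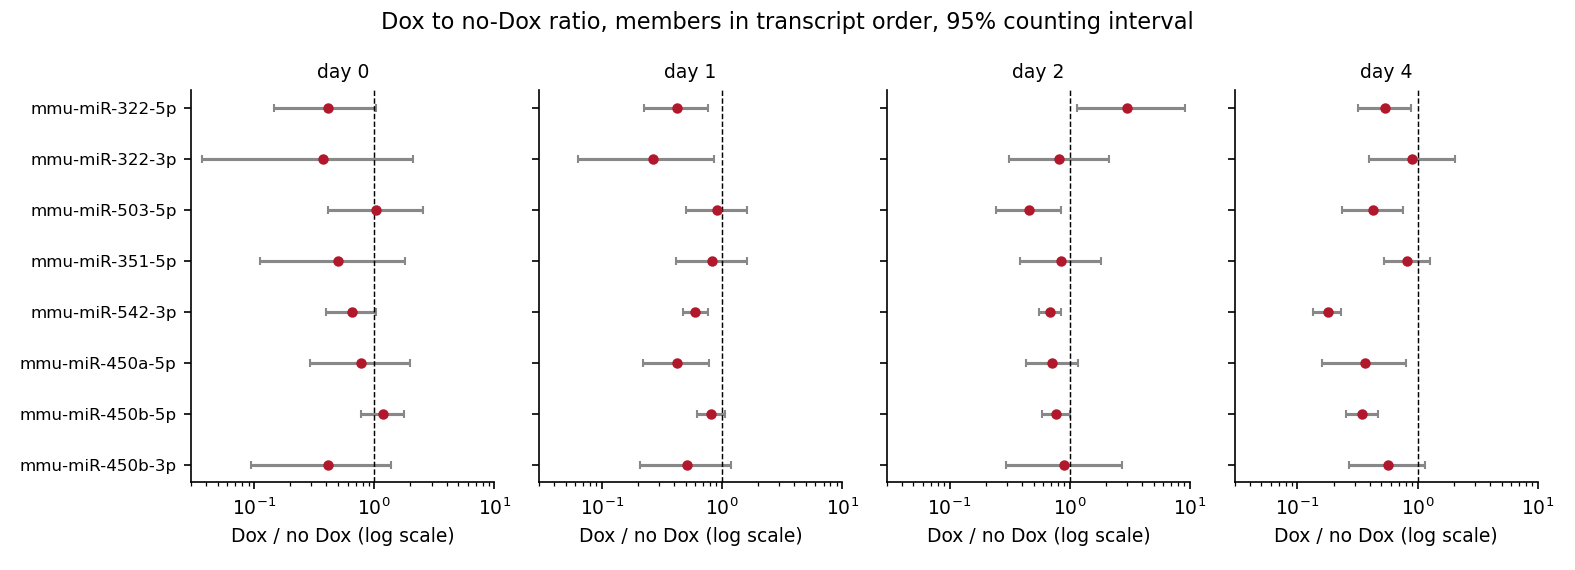
Ratio of the Dox library to the no-Dox library on a log axis for the same 8 members at EB days 0, 1, 2 and 4, with bars for the 95% interval from implied reads, which covers counting error only. At day 4 all 8 points lie left of the dashed line at 1, from 0.179 for miR-542-3p to 0.893 for miR-322-3p, and the single point right of it at day 2 is miR-322-5p.

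The members were also summed by position, on either side of the widest gap between hairpins. The miR-322, miR-503 and miR-351 arms together had 68, 138, 141 and 221 RPM with Dox at days 0, 1, 2 and 4, and 124, 215, 167 and 361 RPM without Dox. This group was highest at day 4 in both treatments. The miR-542, miR-450a and miR-450b arms together had 255, 502, 655 and 307 RPM with Dox, and 308, 763, 907 and 1200 RPM without Dox. This second group was highest at day 4 without Dox and at day 2 with Dox. At day 4 the Dox to no-Dox ratio was 0.608 (0.471 to 0.786) for the miR-322, miR-503 and miR-351 arms and 0.256 (0.212 to 0.306) for the miR-542 and miR-450 arms, and 0.376 (0.290 to 0.487) for the miR-450 arms alone. Single arms did not follow the split: miR-503-5p in the first group stood at 0.426, below the 0.564 of miR-450b-3p in the second. The grouping was made with these values known and each condition has 1 library, so these ratios are a description, with no test of a difference along the cluster.

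The make-up of the cluster's own reads moved with it. miR-542-3p took 24.9% of the cluster's 285 reads in the Dox library of day 4 (95% exact binomial interval 20% to 30.4%) and 47.0% of 566 reads in the no-Dox library (42.8% to 51.2%). miR-351-5p took 17.2% (13% to 22.1%) with Dox and 7.07% (5.10% to 9.50%) without. At day 2 the shares lay closer, with miR-542-3p at 43.0% with Dox and 46.6% without, and miR-351-5p at 4.01% with Dox and 3.53% without.

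**Figure D3:**
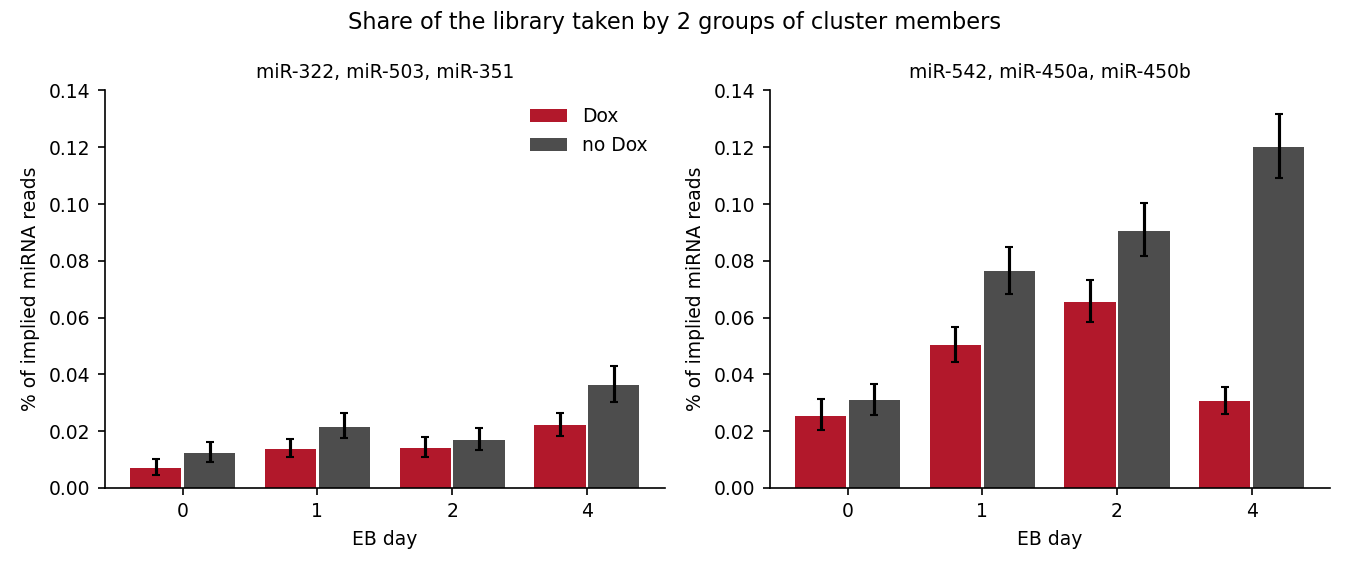
Percent of each library's implied miRNA reads taken by the miR-322, miR-503 and miR-351 arms (left) and by the miR-542, miR-450a and miR-450b arms (right) at each EB day, Dox in red and no Dox in grey, with 95% exact binomial intervals for counting error. In the right panel the day 4 bars stand at 0.0307% with Dox and 0.120% without, and in the left panel at 0.0220% with Dox and 0.0361% without.

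**Figure D4:**
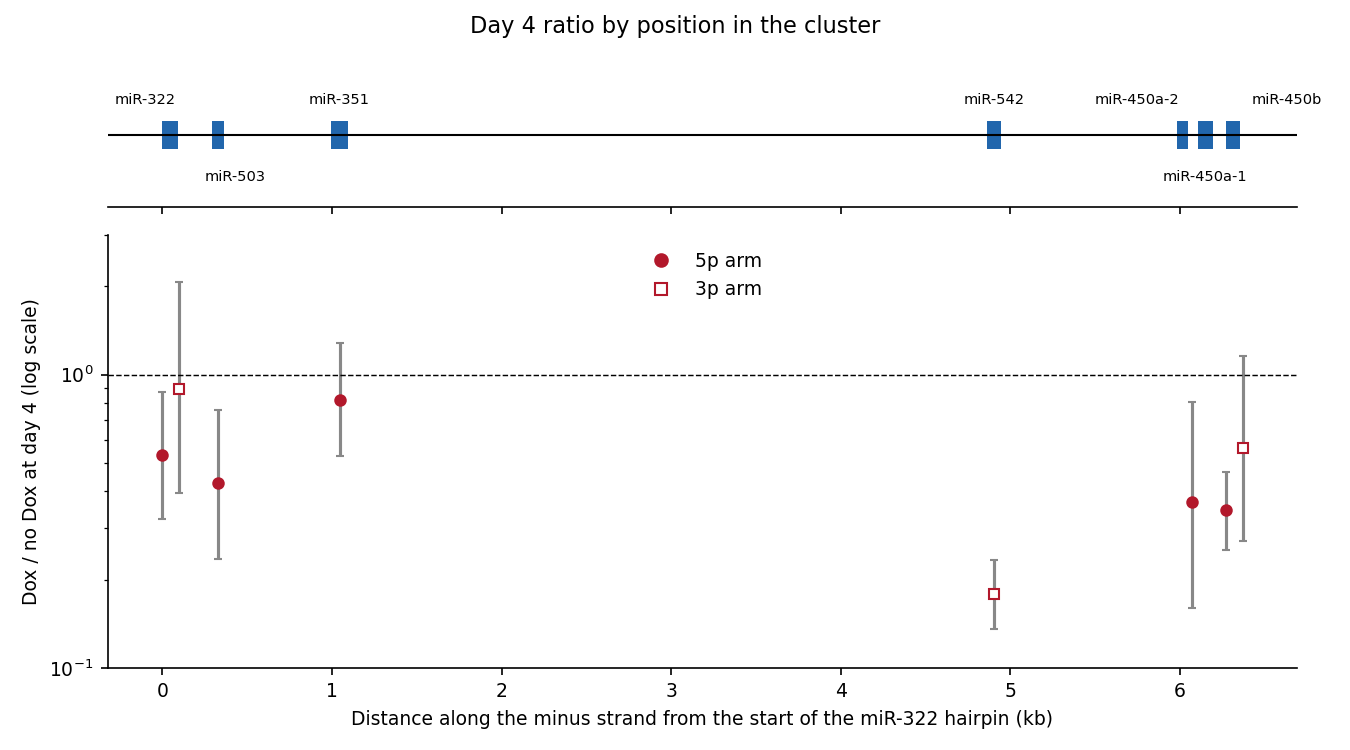
Hairpins of the cluster drawn to scale in kb along the minus strand (top) and the day 4 ratio of Dox to no Dox on a log axis for each arm with a mean of at least 10 RPM (bottom), with filled circles for 5p arms, open squares for 3p arms and bars for 95% counting intervals. Arms of 1 hairpin are set slightly apart, and miR-450a-5p is drawn between the miR-450a-2 and miR-450a-1 hairpins, since both hold its sequence. Left of the widest gap the ratios run from 0.426 for miR-503-5p to 0.893 for miR-322-3p, and right of it from 0.179 for miR-542-3p to 0.564 for miR-450b-3p, so the ranges overlap.

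A formal test of a Dox effect that changes with day called 0 members by limma, with 0.238% of all miRNAs called higher and 0.715% lower in that slope. Limma on the implied reads (voom) also called 0 members, and 2 members had an unadjusted limma p under 0.05. The slope per day was −0.47 on the log2 scale for miR-542-3p (SE 0.16, adjusted p = 0.173 by limma) and −0.42 for miR-450b-5p (SE 0.17, adjusted p = 0.319 by limma). The fit takes the change as a straight line in days, whereas the ratio of miR-542-3p was similar at days 0, 1 and 2 and lower at day 4.

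Markers of other cell states differed between treatments at day 4 too. The 3p arms of miR-302a, miR-302b, miR-302c, miR-302d and miR-367, 5 miRNAs typical of epiblast-like cells, summed to 301, 638, 1163 and 2151 RPM with Dox at days 0, 1, 2 and 4, and to 357, 722, 2140 and 31166 RPM without Dox, with at most 1 of the 5 at 0 in a library. The 8 embryonic stem cell markers were higher with Dox at day 4 in sum, and the 6 fibroblast markers analysed of 7 listed summed to 57499 RPM with Dox and 39579 RPM without Dox on that day, with none at 0 in any library. Most of the fibroblast sum at day 4 was miR-21a-5p, at 53151 RPM with Dox and 36898 RPM without Dox. The fibroblast sum was also higher with Dox at day 0 (19231 RPM with Dox, 13344 RPM without) and day 2 (32660 RPM with Dox, 24508 RPM without). It was lower at day 1 (26053 RPM with Dox, 26309 RPM without). Single markers differed in direction. At days 0 and 2 miR-21a-5p and miR-22-3p were higher with Dox, and the other fibroblast markers analysed were lower. At day 0 miR-21a-5p had 14675 RPM with Dox and 8428 RPM without. At day 4 both miR-199a arms were lower with Dox and the others higher. Among the fibroblast, stem cell and epiblast-like lists limma called 0 miRNAs for Dox averaged over days, with 0.596% of all miRNAs called lower and 1.31% higher. It called 4 of the 5 epiblast-like markers lower in the slope of the Dox effect over days, with 0.715% of all called lower. The part of these cell states in the cluster's values was not tested.

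The next question was how the members moved over EB days in both treatments. The comparisons of days 1, 2 and 4 share their day 0 libraries, and each day supplied 1 library per treatment. At day 1, limma called 1 of the 12 members higher than at day 0 and 0 lower, with 7.03% of all miRNAs called higher and 1.07% lower. At day 2 it called 3 higher and 0 lower, with 15.3% of all called higher and 2.03% lower. At day 4 it called 3 higher and 0 lower, with 21.9% of all called higher and 3.81% lower. The median log2 change of the members tested was 0.83, 1.03 and 0.87 at days 1, 2 and 4, against 0.37, 0.48 and 0.56 over all miRNAs tested. Under median-of-ratios scaling the median of the members was 0.49, 0.57 and 0.28 and that of all miRNAs 0.02, 0.03 and 0.01, and the share of all calls that were higher was 50.7%, 50% and 62.1%, against 86.8%, 88.3% and 85.2% with the values as deposited. The members' changes are therefore to be read against those medians.

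miR-542-3p was called higher on each later day. Its log2 change was 1.51 at day 1 (SE 0.36, limma adjusted p = 0.00119), 2.01 at day 2 (limma adjusted p = 2.53e-06) and 1.60 at day 4 (limma adjusted p = 0.000117). At days 1 and 2 both treatments moved alike: day 2 stood 4.18-fold above day 0 with Dox (2.82 to 6.39) and 3.97-fold without (2.92 to 5.49). At day 4 they parted, with 1.60-fold (1.03 to 2.54) with Dox and 5.82-fold (4.31 to 7.996) without. Leaving out the no-Dox library of day 4 took the day 4 change to 0.68 (limma adjusted p = 0.28), and leaving out the no-Dox library of day 0 or the robust option also ended that call (0.0641 and 0.0552). The day 1 call was lost without the robust option (0.161) or without any of the libraries of day 1 or the no-Dox library of day 0 (0.119 to 0.257), and the day 2 call without either library of day 2 (0.0562 and 0.08).

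miR-351-5p rose by day 4, with a log2 change of 2.60 (SE 0.54, limma adjusted p = 2.15e-05, higher in 2 of 2 treatments). Day 4 stood 8.28-fold above day 0 with Dox (3.04 to 31.6) and 5.06-fold without (2.42 to 11.9), on 4 and 9 implied reads at day 0. This call was kept in each of the alternatives run, those that leave out a library included. miR-322-5p passed at day 4 with 1.37 (SE 0.53, limma adjusted p = 0.04), and its level was 2.99-fold that of day 0 with Dox (1.29 to 8.05) and 2.34-fold without (1.32 to 4.28). That call was lost under median-of-ratios scaling, with a log2 change of 0.79 (limma adjusted p = 0.322), without the robust option (0.255), with no filter (0.0603), with scaling to reads outside the miR-290 cluster (0.279), by limma-voom (0.0685), and without the Dox library of day 0 (0.465), the no-Dox library of day 0 (0.0501) or the no-Dox library of day 4 (0.269).

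At day 2, miR-450a-5p passed with a log2 change of 1.47 (SE 0.52, limma adjusted p = 0.0346) and was lost under median-of-ratios scaling (1.01, limma adjusted p = 0.193), with scaling to reads outside the miR-290 cluster (0.0785), with no filter (0.054), without the robust option (0.0919) and with any 1 of the 4 libraries of days 0 and 2 left out. At day 4 its log2 change was 0.23 (SE 0.52). miR-450a-2-3p passed at day 2 (limma adjusted p = 0.0449) on 4 implied reads with Dox and 2 without, against none at day 0 in either treatment. It is too rare for a fold to be given, and its call was lost with any library of the 2 days left out and under 6 other alternatives, with a pseudocount of 0.5, no filter, both other scalings, no robust option or limma-voom (limma adjusted p = 0.0544 to 0.0721).

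The seed sets each member beside other miRNAs in these cells. miR-322-5p carries the seed of miR-15a-5p, miR-15b-5p, miR-16-5p, miR-195a-5p and miR-497a-5p, a family known for repressing cyclins. These 5 summed to between 2811 and 4165 RPM, and none was called in any of the comparisons by limma. miR-322-5p made up 0.454%, 1.23%, 1.27% and 1.53% of the RPM with that seed with Dox at days 0, 1, 2 and 4, and 1.47%, 2.72%, 0.385% and 3.32% without Dox. Most RPM with that seed were thus those of miR-16-5p and its relatives outside the cluster.

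miR-351-5p carries the seed of miR-125a-5p and miR-125b-5p, homologues of the worm timing miRNA lin-4. Its share of the RPM with that seed was 1.52%, 3.87%, 7.57% and 7.77% with Dox at days 0, 1, 2 and 4, and 4.24%, 5.26%, 7.25% and 9.39% without Dox. miR-125a-5p rose by day 4 (log2 change 1.17, SE 0.31, limma adjusted p = 0.00151), and miR-125b-5p fell by 1.98 at day 2 (SE 0.47, limma adjusted p = 0.000416). Neither was called for Dox. miR-542-3p, miR-450b-5p, miR-503-5p and miR-450a-5p had no other miRNA with their seed in the table.

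Arm use was similar in both treatments within the counts at hand. The 5p share of miR-450b lay between 80.7% and 93.7% over the 8 libraries, with a median of 89.5%. That of miR-503 lay between 81.0% and 96.3% in the 6 libraries with at least 20 reads of its hairpin. For miR-542 the 5p share was at most 3.70%. For these 4 hairpins the counting intervals of the Dox and no-Dox libraries overlapped on each day. The widest difference was that of miR-322 at day 2, with 66.7% of 30 reads with Dox (47.2% to 82.7%) and 35.3% of 17 reads without Dox.

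**Figure D5:**
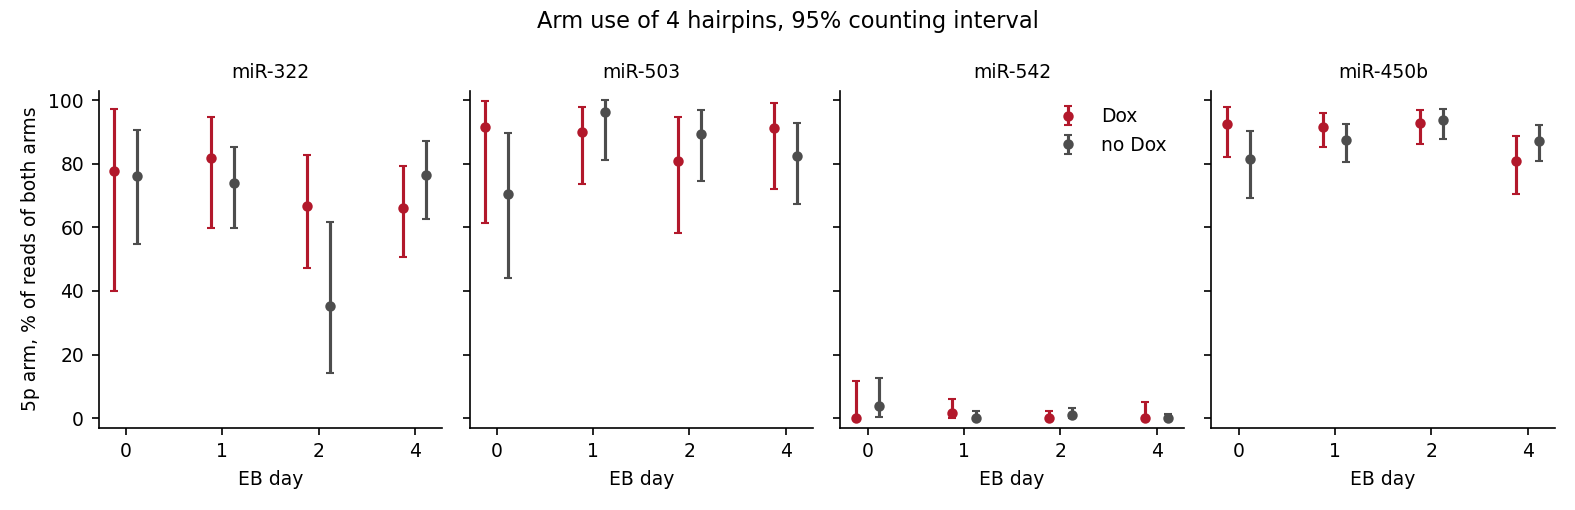
Share of the 5p arm in the reads of both arms for 4 hairpins at each EB day, Dox in red and no Dox in grey, with 95% exact binomial intervals for counting error. miR-322, miR-503 and miR-450b are mostly 5p and miR-542 is nearly all 3p, and the low grey point of miR-322 at day 2 is 35.3% of 17 reads.

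The 5 miRNAs outside the cluster whose pattern over the 8 libraries was most like the members' average were miR-421-3p, miR-708-3p, miR-501-3p, miR-301b-3p and miR-301a-3p. Likeness was the root mean square difference between centred log2 profiles, over 491 miRNAs compared. It was 0.26, 0.29, 0.30, 0.31 and 0.31 for these 5, against a median of 0.76 over all compared and between 0.35 and 0.70 for the 8 members themselves. miR-421-3p had 104, 166, 149 and 126 RPM with Dox at days 0, 1, 2 and 4, and 112, 211, 168 and 326 RPM without Dox. Its day 4 values were apart in the same direction as those of the cluster. The choice by likeness used those day 4 values, so this describes how it was picked. Points of such profiles share library and depth.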

How the data were processed

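The cluster and the lists were picked for study with earlier results of these data known, and members were then found by name. The authors deposited scores, whole numbers per mature miRNA that sum to about the RPM scale, for 8 libraries of total RNA; the submitters' processing notes name Bowtie and mm10, while no source used here gives the counting tool or miRNA annotation. The 1 blank row was left out. The tests planned for counts or normalized values were those for normalized values. Implied reads rest on the library total at which all values become whole reads, within 0.5 RPM. Several totals matched in 6 libraries (up to 207) and the smallest was used, so that intervals and read counts rest on that choice. Only totals below 1000000 were searched, so a single match in the other libraries does not mean that no larger total would fit. Intervals cover counting error only.

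The filter required 1 RPM or more in 2 or more libraries. Values were tested as log2(value + 1) with limma 3.58.1 (R 4.3.3), with trend and robust options, treatment and day as factors and Benjamini-Hochberg adjustment over 839 miRNAs at 0.05. Fold changes on this scale understate low miRNAs. The prior degrees of freedom were infinite for all except 39 miRNAs in the fit of treatment and day. In the fit with a Dox by day slope they were infinite for all except 3. SEs thus mostly come from the trend. P-values therefore rest mostly on that trend and not on each miRNA's own spread. With 1 library per condition, the residual of the fit of treatment and day is how the Dox difference varied between days. That residual may be technical. Tables used Python 3.11.15 and pandas 2.3.3. The fit was also run on simulated libraries with the same dispersion for all miRNAs and no difference between days. That run cannot show how the fit behaves when the Dox difference varies between days. All listed arms of the members are named, with the 5 miRNAs of mean at least 10 RPM most like their average profile. Values are given for up to 3 of the most abundant members of each other list.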

Additional observations from a re-analysis of the deposited data

How the results depend on the processing

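Members called were recounted under other pseudocounts, filters, scalings and spread models, and with libraries left out. For Dox, 1 member was called, with 16 of all 839 miRNAs. Without the robust option, 0 members and 0 of all 839 were called. Leaving out a day's pair gave 0 to 1 members. Of all 839, it gave 7, 10, 1 and 9 without the pairs of days 0, 1, 2 and 4. The Dox by day slope stayed at 0 in each alternative run. At day 1 against day 0, the count was 1, and 0 without the robust option, with 0 to 1 when a library was left out. At day 2 it was 3, and 1 under no filter, median-of-ratios scaling, scaling to reads outside the miR-290 cluster or no robust option, 2 with a pseudocount of 0.5, a mean of at least 10 RPM or limma-voom, with 0 to 2 when a library was left out. At day 4 it was 3, and 1 without the robust option, 2 with no filter, either other scaling or limma-voom, 4 with a pseudocount of 5 or a mean of at least 10 RPM, with 1 to 4 when a library was left out. No log2 change of a called member reversed. With a floor of 50 reads for arm shares, miR-322 kept 2 libraries (median 75.2%, against 75% at 20 reads) and the median of miR-542 was 0% at either floor; the libraries of miR-450b all passed both floors, and miR-503 and miR-351 had none left. Day entered the Dox fit as a factor, which pairs the libraries of each day. With a library left out, a lone library of a day is assumed to vary like the others. Calls were also fewer over all 839 miRNAs without the robust option. They numbered 13, 72 and 157 at days 1, 2 and 4 against day 0, and 68, 145 and 216 with it. The cause of the lost calls was not tested. Counts of a few reads limit most members.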

Other observations

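The cluster that runs between miR-106a and miR-363 is a neighbouring miRNA cluster on the X chromosome, with Mir106a 305429 bases from miR-450b. Its paralogues of the miR-17/92 family are known for promoting proliferation. The list held 10 of its arms, and of miR-19b-2 and miR-92a-2 only the 5p arm, so their 3p arms were not counted. Of those 10, limma called 0 for Dox, and 5, 7 and 6 higher than at day 0 on days 1, 2 and 4. Over all miRNAs, 7.03%, 15.3% and 21.9% were called higher on those days. For Dox, 0.596% of all were called lower and 1.31% higher. miR-363-3p, among the 3 most abundant of those 10 arms, had 2394, 3283, 7238 and 6909 RPM with Dox at days 0, 1, 2 and 4. Without Dox it had 1418, 2972, 6448 and 10977 RPM. Its log2 change at day 4 was 2.24 (SE 0.26). miR-106a-5p, the most abundant of the 10 arms listed, had a log2 change of 0.45 at day 4 (SE 0.25) and was not called there.

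Of 7 miRNAs linked to muscle and mesoderm, 4 were analysed, and limma called 2 of them higher at day 4 and 0 for Dox. Over all miRNAs, 21.9% were called higher at day 4. For Dox, 0.596% of all were called lower and 1.31% higher, so 0 of 4 is near those shares. miR-499-5p, a miRNA of heart and slow muscle and the most abundant of the 4, had 19, 19, 30 and 107 RPM with Dox at days 0, 1, 2 and 4, and 63, 16, 19 and 30 RPM without Dox, and was not called. miR-133a-3p, a muscle miRNA, had 0, 2, 0 and 31 RPM with Dox at days 0, 1, 2 and 4, and 7, 0, 24 and 91 RPM without Dox. miR-1a-3p, which shares primary transcripts with miR-133a, had 0, 2, 0 and 22 RPM with Dox, and 0, 0, 5 and 39 RPM without Dox. At day 4 miR-499-5p was thus higher with Dox, and miR-133a-3p and miR-1a-3p were lower. Before day 4 the values of miR-133a-3p and miR-1a-3p rest on few reads.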
